A study of Mus musculus with 374 samples.

Results

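Assays 50 and 19 are 2 of the 81 TaqMan assays with which single cells of the mouse embryonic heart were profiled by quantitative PCR. They were chosen from values of these same cells: assay 50 because it was rarely detected together with assays 63, 89 and 90, and assay 19 because it was less often detected with assays 86, 87 and 88. Hearts were taken at embryonic day 10.5 from embryos heterozygous for an Nkx2-5Cre allele and for the ROSA26mTmG reporter, and were cut into 9 zones (both atria, the atrioventricular canal, both ventricles, the left and right sides of the septum, and the proximal and distal parts of the outflow tract). GFP+ cells were sorted at 1 cell per well, with 374 cells in all and between 36 and 47 per zone. No untreated or other control group is part of the design, and the labels name no embryo or litter.

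A TaqMan assay reports 1 transcript with a fluorescent probe, and the threshold cycle (Ct) is the PCR cycle at which its signal passes a set level, so an earlier Ct means more template. The reporter changes from a red to a green membrane protein in cells that have expressed Cre and in their descendants. Nkx2-5 is a homeodomain transcription factor that heart progenitors express early, and Cre under its control marks the myocardium and part of the endocardium. At this stage the heart also holds mesenchymal cells of the cushions, which arise largely from endocardium, and an epicardial layer that is beginning to cover it.

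The deposited table identifies assays by number alone, without genes, so neither gene names nor sequences are given here. Its columns carry running numbers, and 0 of the 374 names matched a sample label. Matching columns to labels by their order alone was not done, so levels by zone were not analysed here. All cells form 1 sample without replicates. The members were chosen on these cells, so every value below is a description with no test, and the exact 95% (Clopper-Pearson) intervals cover counting error only. For differences between 2 shares, Newcombe's 95% intervals are given.

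A reaction counted as detected at a Ct of 28 or less, and the 334 cells with at least 10 assays detected were kept. A kept cell had between 10 and 65 assays, with a median of 39.5. Each array took 96 inputs, and the column numbers were accordingly divided into 4 runs of 96, with 79 to 90 kept cells each. No label says that a run is an array, and runs may differ in the zones they hold. Run and zone cannot be told apart here.

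Of the 334 cells, 288 gave a signal for assay 50 (86.2%, interval 82.1 to 89.7%), the fourth highest share of the 81 assays. Its Ct ranged from 10.87 to 25.06 with a median of 14.15 and quartiles of 13.09 and 15.98. Assay 19 was found in 127 cells (38%, interval 32.8 to 43.5%), and its Ct ran from 13.88 to 27.04 with a median of 19.30 and quartiles of 17.21 and 21.77. One was thus found in most cells and the other in a minority. The detection limit fell in a gap for both: the latest detected Ct of assay 50 was 25.06 and its earliest value above the limit 28.35, and for assay 19 these were 27.04 and 28.54. At the cell filter, both of the 2 cells with exactly 10 assays had assay 50 and 0 had assay 19. Of the 4 cells with 9 assays, which were left out, 4 had assay 50 and 1 had assay 19.

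By run, the cells with assay 50 numbered 76 of 84 (90.5%) in the first, 71 of 79 (89.9%) in the second, 59 of 81 (72.8%, interval 61.8 to 82.1%) in the third and 82 of 90 (91.1%) in the fourth. Run 3 was the low one, and without it the share was 90.5% (interval 86.2 to 93.8%). The median Ct of assay 50 stayed between 13.71 in run 3 and 14.69 in run 1. For assay 19 the order was another one, with 36 of 84 cells (42.9%), 21 of 79 (26.6%), 24 of 81 (29.6%) and 46 of 90 (51.1%) in runs 1 to 4. Its lowest and highest runs had intervals of 17.3 to 37.7% and 40.3 to 61.8%, which did not overlap. The median Ct of assay 19 lay between 18.75 in run 4 and 20.20 in run 3.

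**Figure D1:**
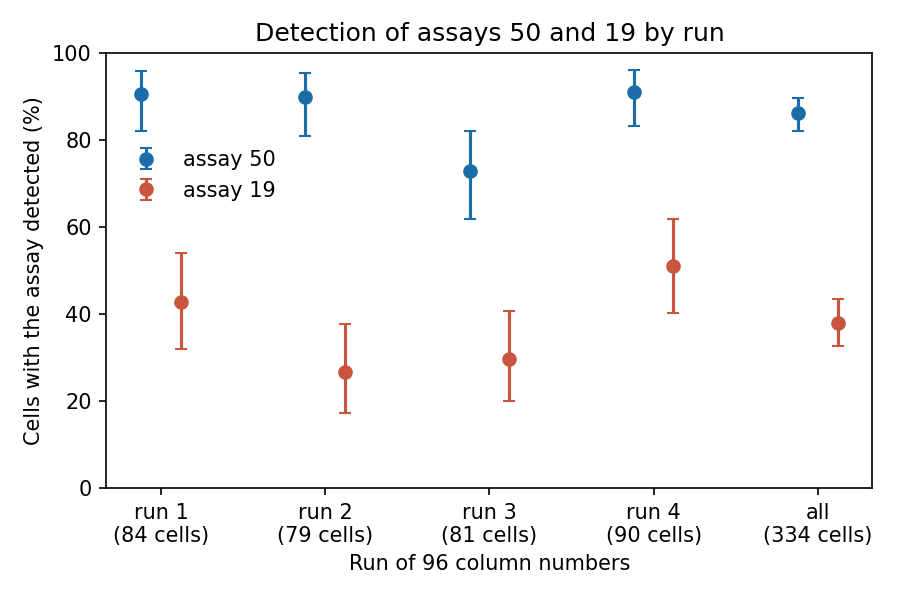
Share of kept cells (%) with assay 50 (blue) or assay 19 (red) detected, by run of 96 column numbers and over all cells. Points are shares and bars exact 95% intervals: assay 50 was at 72.8% in run 3 and near 90% in the other runs, and assay 19 ranged from 26.6% in run 2 to 51.1% in run 4.

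The members did not exclude each other. Both were detected in 99 cells (29.6%, interval 24.8 to 34.9%), assay 50 without assay 19 in 189 (56.6%), assay 19 without assay 50 in 28 (8.38%) and neither in 18 (5.39%). Most cells with assay 19 therefore also had assay 50, 99 of 127 (78%, interval 69.7 to 84.8%). Assay 19 accompanied assay 50 in 34.4% of its cells and was present in 28 of the 46 others (60.9%, interval 45.4 to 74.9%), a difference of -26.5 percentage points (interval -40.3 to -11). That difference was uneven over the runs, at -7.89, -26.1, -59.2 and 1.22 points in runs 1 to 4. Runs 1, 2 and 4 each held 8 cells without assay 50. Without run 3 the difference was -10.3 points, with an interval from -29.8 to 9.4 that includes 0.

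Cells in these 4 classes also differed in how many assays they gave. The median was 41 assays in cells with assay 50 only, 40 with both, 25.5 with assay 19 only and 23 with neither. The widely detected assay 94 followed the same order, with a median Ct of 13.74, 14.45, 15.29 and 15.76. Cells without assay 50 thus had fewer assays and a later assay 94. The part of this in the co-detection below was not tested, and the split by number of assays given there cannot separate it for assay 50.

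**Figure D2:**
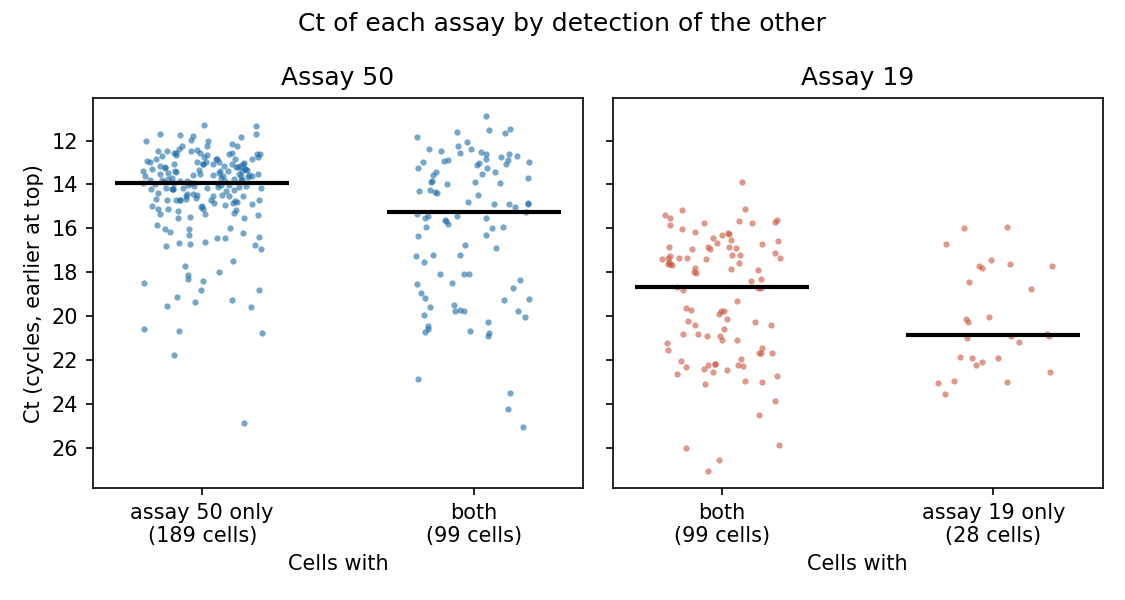
Ct in cycles (axis inverted, so more template is higher) of assay 50 in cells without and with assay 19, and of assay 19 in cells with and without assay 50. Each point is a cell and each black line a median: assay 50 was at 13.94 without and 15.27 with assay 19, and assay 19 at 18.67 with and 20.86 without assay 50.

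Assay 50 was scarce in cells with assays 63, 89 and 90, the property it was chosen for. The 288 cells with assay 50 included 10 with assay 63 (3.47%), 16 with assay 89 (5.56%) and 5 with assay 90 (1.74%). Among the 46 cells without it, the counts were 34 (73.9%), 30 (65.2%) and 32 (69.6%), so the differences were -70.4, -59.7 and -67.8 points. Of the 80 other assays, 9 (11.2%) were at least 30 points less frequent in cells with assay 50, and these 3 had the largest differences among them.

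Over all cells, assay 50 was less frequent at each step in how many of these 3 assays a cell had, but the middle steps held few cells. Of 281 cells with 0 of them, 270 had assay 50 (96.1%, interval 93.1 to 98%). The counts were 10 of 13 cells with 1 of them (76.9%, interval 46.2 to 95%) and 3 of 6 with 2 (50%, interval 11.8 to 88.2%). With all 3 it was 5 of 34 (14.7%, interval 4.95 to 31.1%). Within single runs the order over the steps did not hold. With 2 of them, run 1 had assay 50 in 2 of 2 cells, and with 1, run 4 had it in 5 of 5. In each run the share was lower with all 3 than with 0, the contrast for which assay 50 was chosen. Where assay 50 was detected in cells with these assays it came late: its median Ct was 13.97 with 0 of the 3 assays, 17.47 with 1, 20.66 with 2 and 19.78 with 3. The value with 2 rests on 3 cells, 2 of them in run 1, and those 2 had a median of 61.5 assays. The 5 cells with all 3 ranged from 19.37 to 21.78. They lay inside the range of the cells with 0 (10.87 to 24.88) but later than its median. Assay 94 also came later in these groups, with medians of 13.88, 15.74, 18.83 and 15.42. With 2 of the assays its median was 27.37 in run 1 and 18.15 without run 1.

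Next in the order of assays that were less frequent with assay 50 were assay 91, in 56 of 288 cells with it (19.4%) and 31 of 46 without it (67.4%), and assay 74, in 94 (32.6%) and 31 (67.4%). The lower share of assay 91 was present in each run (from -16.4 points in run 2 to -65.9 in run 3). For assay 74 run 2 went the other way, at 26.1 points, against -46.1 in run 1, -65.9 in run 3 and -45.4 in run 4. For assays 63, 89 and 90 every run had a negative difference, the smallest being -22.2 points for assay 89 in run 2.

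In the opposite direction, 26 of 80 assays (32.5%) were at least 30 points more frequent with assay 50. The largest differences belonged to assay 88, which 242 of 288 cells with assay 50 (84%) and 1 of the 46 other cells had (2.17%, interval 0.055 to 11.5%), and to assay 87, with 236 (81.9%) and 5 (10.9%). Assays 86, 53 and 56 followed at 68.9, 65.9 and 63.9 points. These 5 assays were at least 48.4 points more frequent with assay 50 in every run. A lone assay 50 was almost always accompanied by assays 86, 87 and 88: of the 189 cells with assay 50 only, 179, 183 and 183 had them.

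Since the number of assays per cell differed between the classes, the cells were also split at the median of 35 assays detected among the 70 assays outside the members and the 9 assays of the 3 trios described here. Of the 172 cells at or above it, 2 lacked assay 50, which is too few for a comparison. Among the 162 cells below it, the counts with assay 50 (of 118 cells) and without it (of 44) were 6 and 33 for assay 63 (-69.9 points), 12 and 30 for assay 89 (-58), and 5 and 32 for assay 90 (-68.5). These differences were within 2 points of those over all cells. However, this group held 44 of the 46 cells without assay 50, so the shares without it could hardly change. The split also followed assay 50 itself, with medians of 36.5 of the 70 assays with it and 20.5 without it. It therefore cannot separate assay 50 from the number of assays. For assay 88 the counts were 75 of 118 and 1 of 44, a difference of 61.3 points in place of 81.9. Assays 87, 86, 53 and 56 were at 49.7, 45.7, 40.1 and 40.9 points there, and assays 91 and 74 at -47 and -43.6.

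Assay 19 was less frequent where assays 86, 87 and 88 were detected, again the property it was chosen for. Of its 127 cells, 59 had assay 86 (46.5%), 54 had assay 87 (42.5%) and 59 had assay 88 (46.5%). In the 207 cells without assay 19, 183 (88.4%), 187 (90.3%) and 184 (88.9%) had them, so the differences were -41.9, -47.8 and -42.4 points. These were the largest of the 9 of 80 assays (11.2%) that were at least 30 points less frequent with assay 19, and assays 53 (-41.8 points) and 27 (-41.5) came next. The 3 differences were negative in each run, from -26.4 points for assay 88 in run 1 to -79.4 for the same assay in run 3.

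The share of cells with assay 19 was lower where 2 or 3 of these assays were detected. Assay 19 was present in 60 of 74 cells with 0 of assays 86, 87 and 88 (81.1%, interval 70.3 to 89.3%), 13 of 19 with 1 (68.4%), 3 of 16 with 2 (18.8%) and 51 of 225 with all 3 (22.7%, interval 17.4 to 28.7%). Its Ct in the 51 cells with all 3 had a median of 21.24, against 17.72 in the 60 cells with 0. Both groups spanned a wide range, 13.88 to 27.04 and 15.10 to 25.89. Assay 94 ran the other way, at a median of 13.65 in cells with all 3 and 15.42 in cells with 0. Assay 50, in contrast, was detected in 224 of the 225 cells with all 3 (99.6%) and in 36 of the 74 with 0 (48.6%).

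The split by number of other assays moved these values. In the 162 cells below the median, assays 86, 87 and 88 differed by -56.2, -62.3 and -56.2 points between cells with and without assay 19. In the 172 cells at or above it they differed by -8.98, -15.7 and -9.8 points, and 46, 43 and 46 of the 51 cells with assay 19 had them. Assays 53 and 27 were at -47.3 and -46.3 points below the median and at -15.7 and -16 at or above it. The differences were thus smaller in cells with more assays. There, 120, 121 and 121 of the 121 cells without assay 19 had assays 86, 87 and 88. Nearly all cells at or above the median had these assays, so what the smaller differences mean cannot be told from this split.

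Assays 64, 65 and 67 were found mostly in cells with assay 19. With assay 19, 45 of 127 cells had assay 65 (35.4%), 63 had assay 67 (49.6%) and 51 had assay 64 (40.2%). The 207 cells lacking assay 19 included 2 with assay 65 (0.966%, interval 0.117 to 3.45%) and 6 each with assays 67 and 64 (2.9%). Of the 80 other assays, 7 (8.75%) were at least 30 points more frequent with assay 19. The largest difference was that of assay 67 (46.7 points), followed by assay 40 (42 points, 57 of 127 cells against 6 of 207), assay 84 (41.3), assay 64 (37.3) and assay 92 (36.8). All 5 were more frequent with assay 19 in each run, and assay 40 varied most, from 12.6 points in run 2 to 67 in run 4. In cells below and at or above the median number of other assays, assay 67 was at 45.5 and 46.2 points and assay 84 at 48.2 and 43.3. The others moved more: assay 64 from 42.6 to 28.9 points, assay 65 from 46.4 to 15.7, assay 92 from 50.5 to 21.2 and assay 40 from 29.4 to 60.3.

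Counted by step, assay 19 was present in 54 of 250 cells with 0 of assays 64, 65 and 67 (21.6%), 21 of 30 with 1 (70%), 18 of 19 with 2 (94.7%) and 34 of 35 with all 3 (97.1%, interval 85.1 to 99.9%). Its median Ct was earlier in the last group, at 16.91, than in the first, at 21.69. The shares of assay 50 over the same steps were 87.6%, 73.3%, 94.7% and 82.9%, with intervals that overlapped throughout. Its differences for assays 64 and 67 were -0.377 and 1.27 points, with intervals that include 0. For assay 65 the difference was -11.4 points (interval -25.8 to -0.519), and it was 1.85 points in cells below the median number of other assays.

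**Figure D3:**
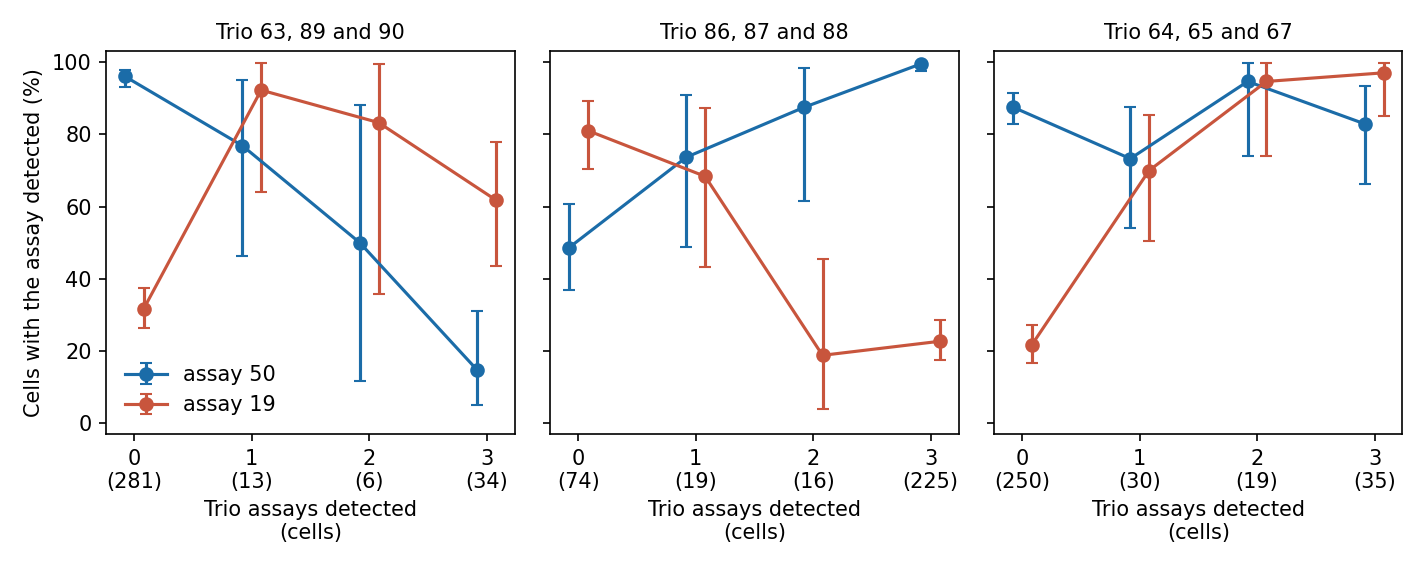
Share of cells (%) with assay 50 (blue) or assay 19 (red), against how many assays of a trio the cell had, with cell numbers in parentheses and exact 95% intervals as bars. Assay 50 went from 96.1% to 14.7% over assays 63, 89 and 90, and assay 19 from 21.6% to 97.1% over assays 64, 65 and 67.

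Over all cells, assays 63, 89 and 90 were also more frequent with assay 19, by 16.9, 18.4 and 11.3 points, and this rested largely on run 3, with 57.9, 53.7 and 53.7 points. Without run 3 the differences were 7.59, 10.5 and 1.77 points, the last with an interval from -4.51 to 9.14. Assay 63 was at -2.57 points in run 4, and assay 90 at -2.78 in run 1 and -2.57 in run 4. Of the 34 cells with all 3 of them 21 had assay 19 (61.8%), and of the 281 with 0 of them 89 did (31.7%). With 1 of them the count was 12 of 13 cells (92.3%), and with 2 it was 5 of 6 (83.3%). Run 3 held 20 of the 34 cells with all 3. Without run 3 the counts were 6 of 14 with all 3 (42.9%, interval 17.7 to 71.1%) and 81 of 221 with 0 (36.7%). The small groups with 1 and 2 stayed high without run 3, at 11 of 12 (91.7%, interval 61.5 to 99.8%) and 5 of 6 (83.3%, interval 35.9 to 99.6%). Of the 28 cells with assay 19 only, 16 lay in run 3. Among these 28, 22 had assay 63, 19 had assay 89 and 20 had assay 90. Assay 88 was in 0 of them, for which the exact upper limit is 12.3% and the share that 3 counts would give 10.7%. In the 18 cells with neither member, 6 of which lay in run 3, 12 had assay 63, 11 assay 89 and 12 assay 90. Cells without assay 50 therefore had these 3 assays at shares whose intervals overlapped, whether or not assay 19 was present.

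**Figure D4:**
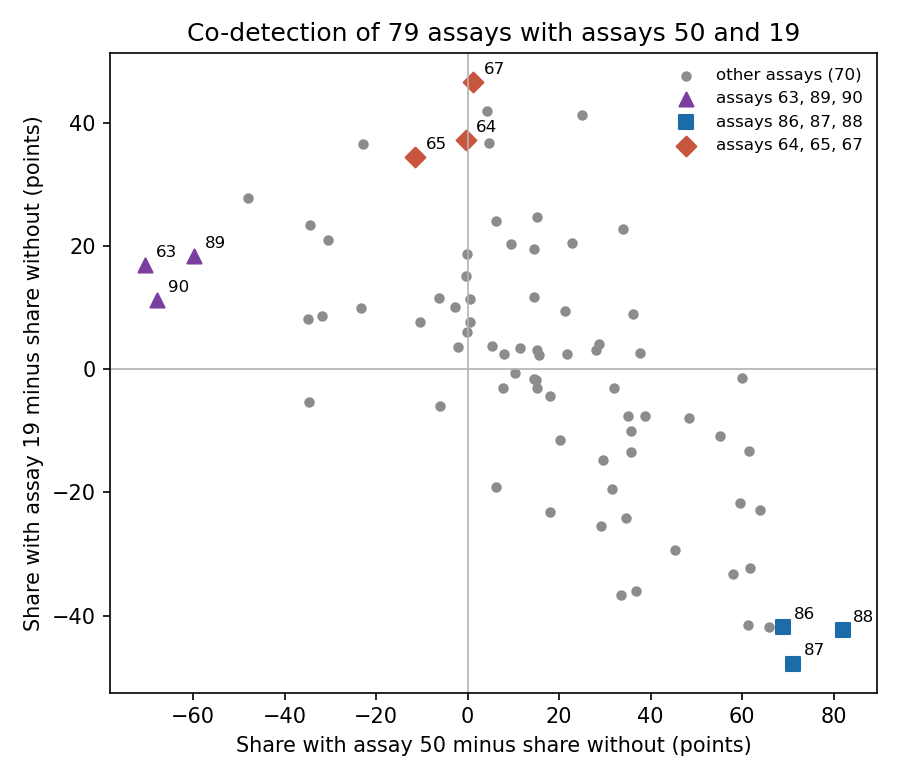
Difference in detection share (percentage points) of 79 assays between cells with and without assay 50 (horizontal) and with and without assay 19 (vertical), over the 334 kept cells. Assays 63, 89 and 90 lie at the left (-70.4 to -59.7), assays 86, 87 and 88 at the lower right, and assays 64, 65 and 67 at the top, at -0.377, -11.4 and 1.27 on the horizontal axis. Both axes come from the same cells.

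The 99 cells with both members were not of 1 kind. A trio was called present when 2 or more of its assays were detected. By this rule 43 of the 99 had assays 86, 87 and 88 alone of the 3 trios (43.4%), 35 had assays 64, 65 and 67 alone (35.4%) and 9 had both of these trios, of which 8 lay in run 1. These 9 cells had a median of 54 assays, against 43 with the first trio alone and 34 with the second alone. Another 3 had assays 63, 89 and 90 alone, 3 had these with another trio (median 58 assays) and 6 had no trio. Of the 189 cells with assay 50 only, 183 had assays 86, 87 and 88 alone (96.8%), and 0 had 2 or more of assays 64, 65 and 67 (exact upper limit 1.93%, and 1.59% for 3 counts). Assay 17 was detected in 171 of these 183 cells, at a median Ct of 17.86. It was at 16.98 in the 20 cells with assay 19 only and assays 63, 89 and 90 alone, 13 of which lay in run 3. Assay 94 had the opposite order, at 13.72 and 15.40.

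Among cells with both members, the Ct values of the members differed between the trios in opposite directions. In the 43 cells with assays 86, 87 and 88 alone, assay 50 ranged from 10.87 to 16.34 with a median of 13.03, and assay 19 from 15.72 to 26.54 with a median of 21.68. In the 35 cells with assays 64, 65 and 67 alone, assay 50 ranged from 13.73 to 24.23 with a median of 17.25, and assay 19 from 15.10 to 21.10 with a median of 16.94. The first group thus had assay 50 4.22 cycles earlier and assay 19 4.74 cycles later by the medians. The ranges overlapped, but 22 of the 35 cells of the second group had assay 50 later than every cell of the first, and 24 of the 43 cells of the first had assay 19 later than every cell of the second.

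Assay 94 was earlier in the first group, at 13.65 against 15.34. Assay 17, which is also widely detected, was later there, at 17.94 against 16.55. Values relative to assay 17 were not computed. Taken relative to assay 94 in the same cell, assay 50 was at a median of -0.20 cycles in the first group (range -2.76 to 1.60) and 2.25 in the second (range -0.95 to 7.27). Assay 19 was at 8.10 (range 1.56 to 12.26) and 1.86 (range -1.03 to 7.38). The opposite directions held within each run too: assay 50 had medians of 13.91, 12.90, 12.87 and 12.98 in the first group in runs 1 to 4 and 17.24, 20.71, 19.22 and 15.72 in the second. Assay 19 had medians of 22.43, 20.40, 22.24 and 21.19 in the first and 16.85, 17.38, 15.80 and 17.08 in the second. Run 3 held 2 and 4 of these cells.

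**Figure D5:**
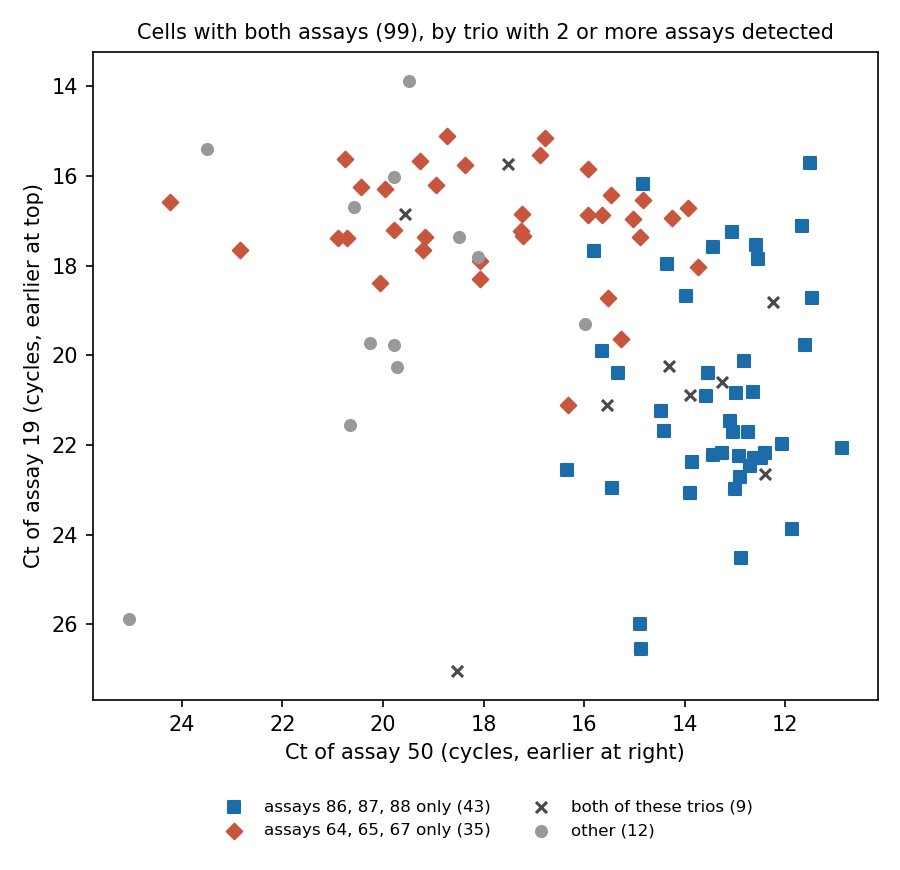
Ct of assay 19 against Ct of assay 50 in cycles (both axes inverted) for the 99 cells with both, marked by which trio had 2 or more assays detected. Cells with assays 86, 87 and 88 alone lie at early assay 50 (median 13.03) and late assay 19 (median 21.68), and cells with assays 64, 65 and 67 alone at late assay 50 (17.25) and early assay 19 (16.94).

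Within each of these groups the members' Ct values showed no clear relation, with a Spearman rho of 0.11 over 43 cells and -0.09 over 35 cells, while the pooled rho over the 99 cells was -0.47. Over all cells that had both assays of a pair, and at least 50 such cells, assay 50 was most like assay 85 (rho 0.76 over 259 cells), assay 88 (0.73 over 242) and assay 94 (0.72 over 285). The median rho of assay 50 with 66 assays was 0.20. After each cell's median Ct over its detected assays was subtracted, the rho values with assays 85, 88 and 94 were 0.66, 0.61 and 0.49. The detected assays differed between cells, and whether their median reflects the amount of template was not tested. Before that subtraction, each of these rho values was at least 0.54 in every run.

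For assay 19 the largest rho values were -0.55 with assay 87 (54 cells), 0.52 with assay 67 (63 cells) and the -0.47 with assay 50. After subtraction of the cell's median Ct they were -0.45, 0.56 and -0.44. The median over 48 assays was 0.00. The relation with assay 67 was uneven over the runs, at 0.80 (22 cells), 0.60 (13), 0.37 (6) and -0.12 (22) in runs 1 to 4. That with assay 87 was -0.56 in run 1, -0.65 over 9 cells in run 2 and -0.45 in run 4, and run 3 had 3 such cells.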

How the data were processed

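Single cells were lysed, reverse transcribed, pre-amplified with TaqMan assays and measured on microfluidic arrays of 96 by 96 reactions, per the labels' protocols. Ct values of 81 assays in 374 columns were deposited by the authors as 1 table, named as not normalized, in which 999 stands for a reaction without a Ct. For the instrument software, threshold and quality filters, the sources used here say nothing. Only the columns named SAMPLE with a number were read, and none of them duplicated another (0 found).

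Ct values were used as deposited. Detection was a Ct of at most 28, and cells needed 10 assays. Shares have exact intervals (scipy 1.17.1), and differences of shares Newcombe intervals. A count of 0 was given the share that 3 counts would give. Assays 94 and 17 are common ones. Assay 94 served as a reference for template, but its Ct followed that of assay 50 (rho 0.72) and assay 17 gave other directions. Whether either measures template alone was not tested. The named assays were the 5 with the largest differences in each direction and the 3 with the largest absolute rank correlation over at least 50 cells, besides the assays of the selection rule. Members, lists, the trio rule and the split by number of assays were chosen with earlier results of these data known. The calculations of co-detection and correlation were tried on simulated data with planted effects. All other assays were drawn there independently of each other, without the real differences between cells in number of assays. The simulation therefore checks the calculation only and lends no weight to the values above. Comparisons by zone had been planned and were not run. Alternatives were no cell filter, 20 assays per cell, each run left out, a limit of Ct 24 or Ct 26 or none, and Ct minus the cell's median. Python 3.11.15, numpy 2.4.6, pandas 2.3.3 and matplotlib 3.10.9 were used. The intervals reflect the number of cells only and do not cover differences between runs or between embryos, which the labels do not name.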

Additional observations from a re-analysis of the deposited data

Results flagged for a closer look

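Signals of both members lay outside the values described above. Among the 40 cells that failed the minimum of 10 assays, 28 had assay 50 (70%, interval 53.5 to 83.4%), at Ct values from 15.54 to 22.57 with a median of 19.69. The median in kept cells was 14.15. Of these 40 cells, 1 had assay 19 (2.5%), at a Ct of 22.03. A Ct above 28 was given for assay 50 in 4 cells, from 28.35 to 33.21, and for assay 19 in 6 cells, from 28.54 to 35.23. Of these, 3 and 5 lay in kept cells.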

How the results depend on the processing

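Of 145 values recomputed for 15 results, 124 stayed within the interval of the reported value, or within 1.5 times for a count of assays, and 1 changed direction. The counts of assays and the split by number of other assays were added after the data were seen. Without a cell filter, assay 63 differed by -55.5 points with assay 50, and assays 86, 87 and 88 by -31.2, -37.5 and -31.5 points with assay 19. The assays at least 30 points less frequent numbered 4 for assay 50 and 5 for assay 19, in place of 9 each. Those at least 30 points more frequent numbered 25 and 10, in place of 26 and 7. The cells with few assays were then included, and their part in these counts was not tested. Without run 3, assay 50 was in 90.5% of cells, 5 assays were less frequent with it, and assay 19 differed by -10.3 points. Relative to the cell's median Ct, assay 50 was at -5.74 and assay 19 at -0.28 cycles. Among cells with more other assays, 2 of which lacked assay 50, assays 63, 89, 90 and 19 differed by -47.6, 2.35, 0 and -71.2 points with assay 50, and assays 86, 87 and 88 by -8.98, -15.7 and -9.8 points with assay 19. The last 3 were -56.2, -62.3 and -56.2 points among cells with fewer. No paired analysis was possible because no column carries a replicate number of the labels. The small number of cells without assay 50, 46 in all, widens the counting intervals of its differences, most of all in the runs with 8 such cells. Those intervals do not cover differences between runs or embryos.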
